A study of Bos taurus with 20 samples.

Results

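The ZNF genes are the zinc finger genes whose array symbol begins with the letters ZNF and a digit. Their mRNA was measured by 748 of the 61325 non-control oligonucleotide probes of a custom bovine microarray, which stand for 265 of the 22550 genes or transcripts on it. The rule reads the symbol alone and uses no measured value. The samples came from bovine ovaries collected after slaughter, from antral follicles of 3 to 6 mm. Cells of 4 kinds were taken without culture: theca cells scraped from the follicle wall, granulosa cells of the follicle lining, cumulus cells that surround the oocyte, and the oocytes themselves. The other group was cumulus cells after 4 h of in vitro maturation (IVM), in which the cumulus-oocyte complex was cultured before the cumulus cells were detached. Each group had 4 arrays, which the study describes as biological replicates, and the labels give no age or breed of the animals. The study compared the cell types of the follicle, and its cumulus arrays after IVM allow a second comparison with fresh cumulus.

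Most ZNF genes encode proteins with a row of C2H2 zinc fingers, each a short fold held by a zinc ion that reads a few bases of DNA, joined by a conserved linker. Many also carry a KRAB domain, which binds the cofactor TRIM28 and through it histone methyltransferases and deacetylases that silence transposons and imprinted loci. The family is one of the largest and fastest changing in mammals and lies largely in chromosomal clusters that grew by duplication. In the ovary, zinc finger proteins stored by the growing oocyte are known for keeping imprints and repeats silent in the early embryo. The symbol is not a strict family: ZNF185 is by its description a LIM domain protein, and ZNF593, ZNF622 and ZNF598 act on ribosomes.

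The shared linker could be seen in the probes. A stretch encoding it in a forward reading frame was found in 55 of 748 ZNF probes (7.35%) and in 50 of the 60577 other probes (0.0825%), and 42 of the 265 genes had at least 1 such probe. The probes below are shown because the genes they measure recur in the results and because they display the sequence that members have in common; capitals mark the bases that encode the linker. Each is 60 bases long, 5′ to 3′ as the array file gives it, and the position is that of the transcript on UMD 3.1, with the strand not given in the files.
ZNF143 (chr15:43731788-43735570): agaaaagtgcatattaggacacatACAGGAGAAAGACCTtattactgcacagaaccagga
ZNF175 (chr18:57900691-57910762): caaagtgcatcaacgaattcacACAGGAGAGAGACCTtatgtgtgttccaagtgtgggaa
ZNF25 (chr28:13138755-13142845): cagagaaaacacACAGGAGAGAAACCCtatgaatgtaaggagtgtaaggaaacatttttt
ZNF76 (chr23:9196406-9235677): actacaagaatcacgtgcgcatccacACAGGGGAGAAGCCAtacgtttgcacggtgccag
ZNF79 (chr11:98174566-98189943): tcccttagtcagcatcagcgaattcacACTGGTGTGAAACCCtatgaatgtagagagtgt
ZNF10 (chr17:45155079-45163447): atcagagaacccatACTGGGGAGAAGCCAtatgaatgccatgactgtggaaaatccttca
ZNF132 (chr18:65878289-65880106): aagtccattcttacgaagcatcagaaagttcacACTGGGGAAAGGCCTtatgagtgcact
The capitals differ in several bases, some of them silent; the search allowed 2 alternative residues at each of 2 positions, and ZNF79 carries the rarer form of 1 of them. A run of at least 20 bases of some probe was shared with a probe of another gene, transcript or endogenous retrovirus in 40 of the 265 members, and with another ZNF gene in 23, so their signals can include a relative.

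Signals are given as levels, the log2 of the background-subtracted signal minus the 75th percentile of all probes on the same array, with the median over the probes of a gene. A level of 0 is thus the 75th percentile of an array, and differences between groups are on the log2 scale. Levels are compared between arrays for 1 gene, not between genes, since probes differ in brightness. Replicates of a group correlated at 0.966 to 0.992 over all genes. On the arrays of theca, granulosa and cumulus, 65.0 to 77.4% of the ZNF probes were above background, against 53.9 to 63.1% on those after IVM. Oocyte replicate 2 stood apart, with 53.5% against 73.5 to 83.0% on the other oocyte arrays. Replicates 1 and 2 of theca, granulosa, cumulus and oocyte shared slide 1 and replicates 3 and 4 shared slide 2, while all arrays after IVM lay alone on slide 3. The labelled cell types showed their markers: 5 of 5 theca markers were higher in theca, 4 of 4 granulosa and cumulus markers were lower in both theca and oocyte, and 6 of 6 oocyte markers were higher in the oocyte.

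ZNF genes were widely detected, a gene counting as above background on an array where any of its probes was. On at least 3 of the 4 arrays of a group, 215 members (81.1%) were above background in theca, 215 (81.1%) in granulosa, 219 (82.6%) in cumulus and 221 (83.4%) in the oocyte, where 61.3 to 66.8% of all genes were. After IVM the count was 182 (68.7%, against 58.9% of all genes). Of the 265 members, 167 were detected in all 5 groups and 21 in none. The oocyte alone among the cell types detected 14 members: ZNF280A, ZNF331, ZNF385C, ZNF445, ZNF474, ZNF483, ZNF541, ZNF597, ZNF641, ZNF652, ZNF683, ZNF774, ZNF783 and ZNF804B. Another 22 were detected in a somatic type and not in the oocyte. Of the 14, ZNF331, ZNF483 and ZNF652 were not called different in the oocyte (-0.57, 0.34 and 0.30). The shares of all genes with these patterns were not counted. The oocyte arrays were brighter (75th percentile of the signal 1521 to 2889, against 368 to 1101 in theca, granulosa and cumulus). The lowest signal marked above background was at -6.84 to -4.02 in the oocyte and -5.72 to -4.84 in those types. The group with the highest mean level of the 4 cell types was the oocyte for 133 members (50.2%, against 34.4% of all genes) and theca for 23 (8.68%, against 19.1%). In such bulk samples, fewer cells of a type and less RNA per cell cannot be told apart.

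The oocyte was set against the mean of theca, granulosa and cumulus. Of the 265 ZNF genes, 121 (45.7%) were higher in the oocyte, against 32.9% of all 22550 genes, and 95 (35.8%) were lower, against 38.3%. The members' median difference was 0.27 and that of all genes -0.52. Both include genes at background. Among genes above background on all 20 arrays, 79 of 134 members (59.0%) were higher and 31 (23.1%) lower. Of all such genes 44.0% were higher and 39.6% lower, and the medians were 0.64 in the members and 0.12 in all. Among the 4 cell types, 213 members (80.4%) differed by limma's F-test, against 71.3% of all genes. Limma's tests used a Benjamini-Hochberg adjusted p below 0.05 over all 22550 genes. With another background correction (normexp), 83 members were higher and 150 lower, beside 24.0% and 67.1% of all genes, and the members' median became -0.61 and that of all genes -1.30. Without oocyte replicate 2 the members gave 121 and 98, while the share of all genes called lower rose to 52.3%.

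**Figure D1:**
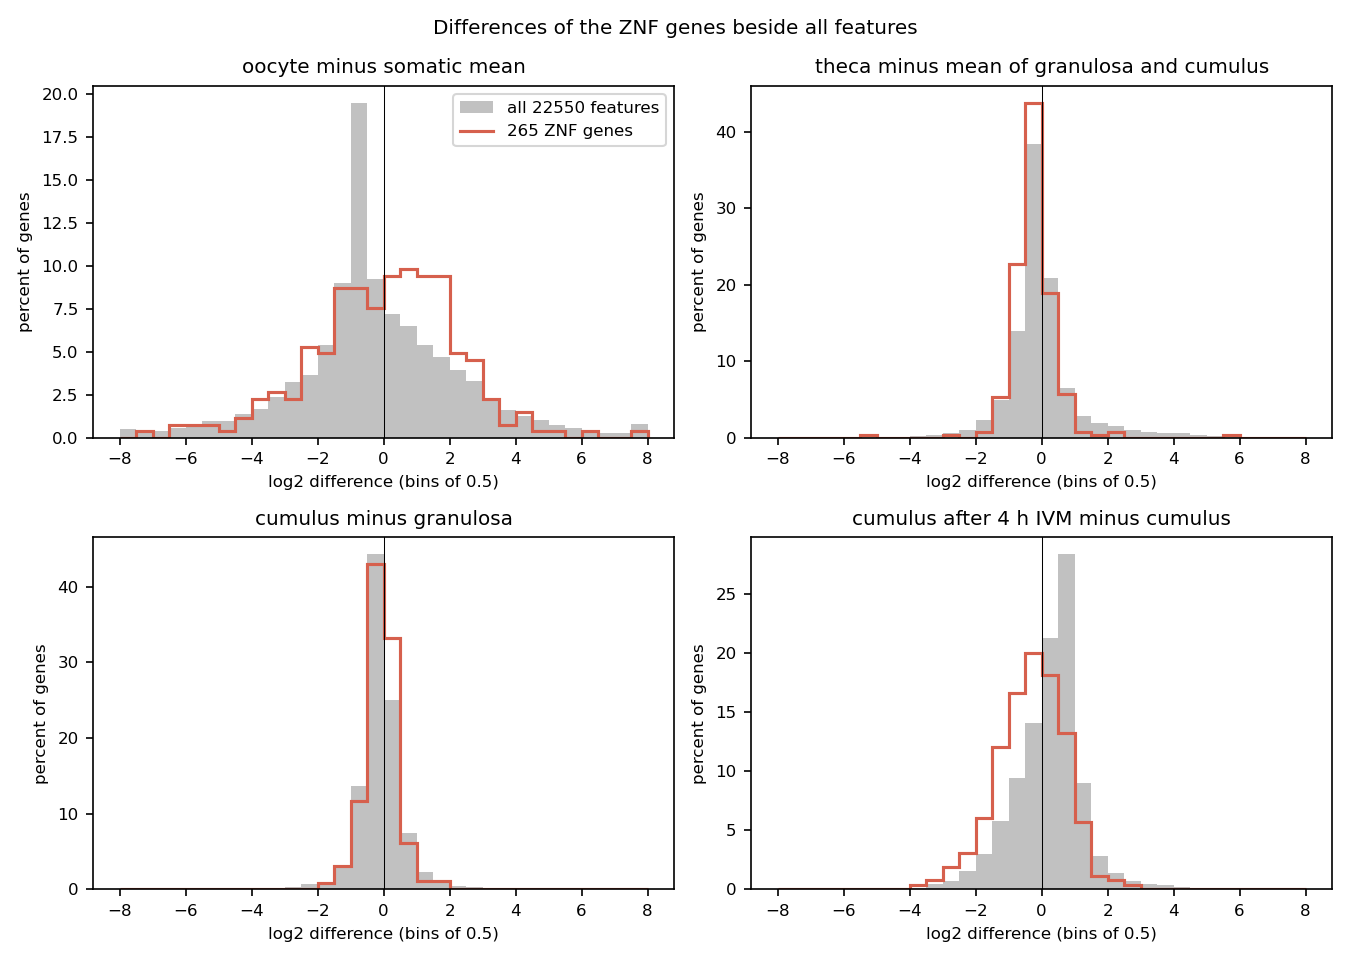
Distribution of the log2 differences (x axis, bins of 0.5, ends pooled) as percent of genes (y axis) for the 265 ZNF genes (red line) and all 22550 genes or transcripts (grey). In the oocyte panel the ZNF genes lie to the right of all genes (medians 0.27 and -0.52), and in the IVM panel to the left (medians -0.27 and 0.37).

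The genes named here were chosen as the largest called differences among members whose groups do not overlap and whose brighter side was above background, so that the lack of overlap is a condition of the choice and not a result. ZNF541, higher in the oocyte (chr18:54934641-54949833), is known for a role in meiosis of male germ cells. Its levels were 1.02, 1.29, 1.26 and 1.29 in the oocyte and -7.37 to -6.69 on the 12 somatic arrays. The oocyte arrays were all far above the others, and the gene was not above background on any granulosa or cumulus array and was on 1 theca array, so the oocyte was at least 75.9-fold above granulosa and 98.7-fold above cumulus (adjusted p = 4.32e-16). ZNF215 (chr15:46385477-46412894), which carries KRAB and SCAN domains, was measured by 4 probes. Its levels as their median were 1.94, 2.01, 2.00 and 1.83 in the oocyte, -3.14, -3.75, -3.89 and -3.43 in cumulus, -4.43, -4.17, -4.42 and -4.08 in granulosa and -5.68, -5.76, -5.04 and -5.92 in theca. No group overlapped another, in the order oocyte, cumulus, granulosa, theca, and the oocyte difference was 6.42 ± 0.17 (SE; adjusted p = 3.02e-14). Of its 4 probes, 2 share 20 bases with probes of endogenous retroviruses; these were above background on all 20 arrays and differed by 5.27 and 5.19. The other probes share none, were above background on 7 arrays each and differed by 7.90 and 7.38, so the somatic levels and their order rest in part on the shared probes.

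ZNF304 (chr18:64691262-64695901), a KRAB protein known to recruit silencing complexes, was at 3.05 to 3.14 on the oocyte arrays. Its somatic levels lay from -0.89 to -0.22. The oocyte arrays agreed within 0.1 and lay 3.68 ± 0.11 above the somatic mean (SE; adjusted p = 8.21e-14). ZNF691 was at 1.94, 1.69, 1.64 and 1.76 in the oocyte and -2.60 to -1.46 in somatic cells. ZNF621 was at 0.18, 0.24, -0.08 and 0.31 in the oocyte and -4.90 to -3.09 in somatic cells. Both were far lower in somatic cells (differences 3.86 ± 0.16 and 4.10 ± 0.18, SE). The X-linked ZNF182 was at 0.35, 0.61, 0.78 and 0.43 in the oocyte against -4.66 to -3.42 in somatic cells. ZNF2 was at -0.52, -0.99, -0.40 and -0.75 against -5.96 to -3.89. Both differences exceeded 4 on the log2 scale (4.39 ± 0.15 and 4.45 ± 0.24, SE). Some of the ZNF182 probes share 20 bases with probes of ZNF548 and ZNF684. In the oocyte ZNF548 was higher as well (3.39), while ZNF684 was called lower (-1.54).

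The remaining strongly oocyte-high members were at or near background in somatic cells. ZNF474, a symbol of the array design that RefSeq now gives otherwise, had oocyte levels of -1.93, -1.95, -0.92 and -1.90, replicate 3 being the highest, and was at least 10.2-fold higher than in granulosa and 13.3-fold higher than in cumulus. ZNF280B was at -1.64, -1.85, -1.75 and -1.89, at least 9.52-fold above granulosa. ZNF804B was at -2.97, -2.78, -2.41 and -2.99, at least 5.66-fold above theca, 4.74-fold above granulosa and 6.17-fold above cumulus, where no array detected it. The adjusted p of these genes lay between 5.53e-14 and 1.07e-10. The ZNF280B probes shared 20 bases with other genes or transcripts.

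**Figure D2:**
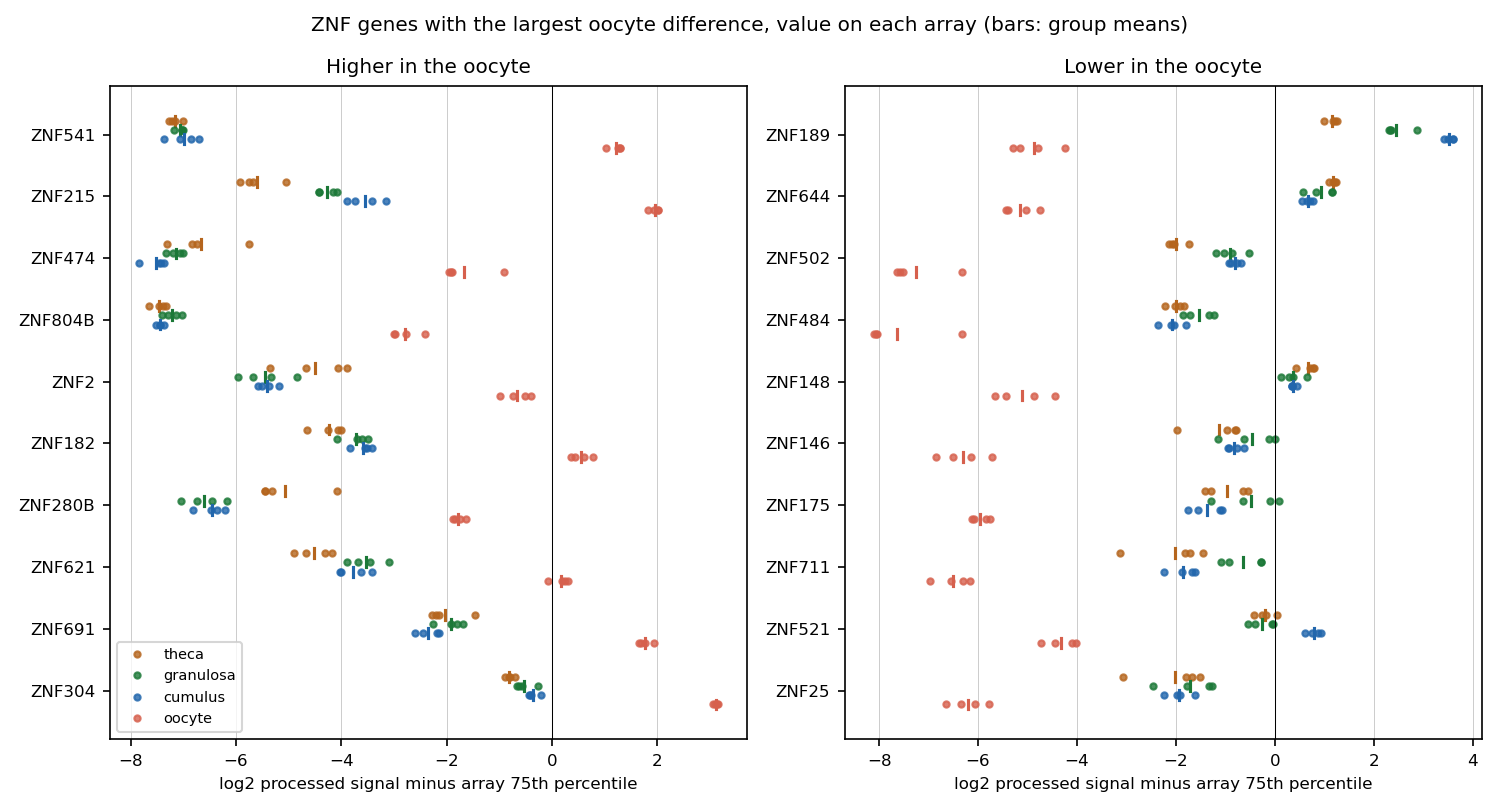
Level on each array (x axis, log2 signal minus the array's 75th percentile) of the 10 ZNF genes with the largest positive and the 10 with the largest negative oocyte difference (y axis); points are the 4 arrays of a group and bars its mean. By the rule of choice, every oocyte point lies outside the range of that gene's somatic points, for ZNF541 at 1.02 to 1.29 against -7.37 to -6.69.

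Members lower in the oocyte included widely used regulators. ZNF189 (chr8:92751543-92762917), a KRAB-type member, was at -4.78, -5.30, -4.24 and -5.16 in the oocyte, 1.18, 1.00, 1.22 and 1.26 in theca, 2.87, 2.35, 2.32 and 2.30 in granulosa and 3.42, 3.59, 3.60 and 3.50 in cumulus. Its groups did not overlap, and the oocyte difference was -7.25 ± 0.17 (SE; adjusted p = 1.15e-14). ZNF644 (chr3:52413191-52508199), a partner of the histone methyltransferase G9a, was at -5.44, -5.39, -5.03 and -4.74 in the oocyte and 0.54 to 1.24 on somatic arrays. ZNF148 (chr1:70287257-70382437), a factor that binds GC-rich promoters, was at -5.66, -4.87, -5.44 and -4.44 against 0.12 to 0.79. Both were evenly high in the somatic types and low on every oocyte array, with differences of -6.08 ± 0.15 and -5.57 ± 0.18 (SE).

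ZNF502 and ZNF484 were above background on 2 of the 4 oocyte arrays each. ZNF502 was at -7.64, -6.32, -7.58 and -7.51 and ZNF484 at -8.04, -6.33, -8.11 and -8.07; in both the highest oocyte array was replicate 2, the one with the fewest detected probes. Their somatic levels lay from -2.14 to -0.51 and from -2.36 to -1.23. ZNF146, which consists of fingers alone, differed by -5.50 ± 0.26 (SE), and ZNF175, whose probe is printed above, by -5.01 ± 0.24. ZNF711, an X-linked gene whose protein acts with a histone demethylase, differed by -5.00 ± 0.27, ZNF521 by -4.43 ± 0.15 and ZNF25 by -4.32 ± 0.28. The adjusted p of these 7 genes was at most 8.96e-10, and all 10 named genes remained called with any single array left out. The ZNF146 probes and the linker probe of ZNF25 share 20 bases with other genes or transcripts.

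The comparison was also read by brightness. Genes were split into quartiles by their mean level over the 20 arrays, which put 22, 85, 112 and 46 ZNF genes into quartiles 1 to 4. In quartile 3, 61 of 112 members (54.5%) were higher in the oocyte, against 41.1% of all genes in it, and 34 (30.4%) were lower, against 43.6%. In quartile 2 the shares were alike, 38.8% of members and 39.7% of all genes higher. In quartile 4 they were 45.7% and 41.1%. In quartile 1, the dimmest, 6 of 22 members (27.3%) were higher against 9.77% of all genes, and 7 (31.8%) were lower against 21.5%.

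**Figure D3:**
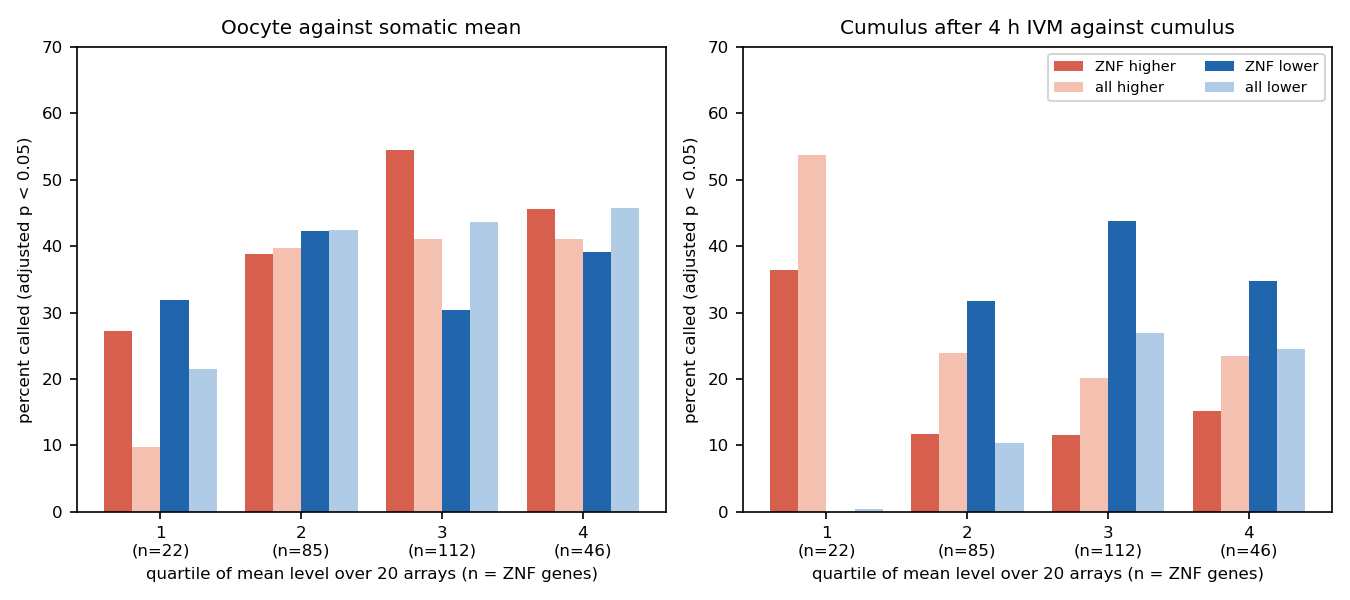
Percent of ZNF genes (dark bars) and of all genes (light bars) called higher (red) or lower (blue) in each quartile of mean level, for the oocyte against the somatic mean (left) and cumulus after 4 h IVM against cumulus (right). In quartile 3 the ZNF genes were called higher in the oocyte in 54.5% against 41.1% of all genes, and lower after IVM in 43.8% against 26.9%.

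Differences among the somatic types were fewer. By the F-test over theca, granulosa and cumulus, 80 members (30.2%) differed, against 34.1% of all genes. In theca against the mean of granulosa and cumulus, 17 members (6.42%) were higher, against 14.3% of all genes, and 63 (23.8%) were lower, against 18.5%. With the 75th percentile taken over probes above background on all arrays, the counts were 27 higher (10.2%, against 17.9% of all genes) and 33 lower (12.5%, against 13.6%). Beside these, 3 of 3 endothelial markers were higher in theca (summed level 0.43 to 2.13 in theca, -4.66 to -3.15 in granulosa and -5.63 to -4.86 in cumulus) and 2 of 2 blood markers (-4.14 to -2.83 in theca, -5.26 to -3.69 in granulosa and -6.30 to -6.13 in cumulus), with CDH5 and PTPRC above background on no granulosa or cumulus array. The part of other cell types in the theca result was not tested.

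ZNF423 (chr18:18041277-18392207), which works with SMAD and EBF factors in BMP signalling and mesenchymal cells, was the member that marked theca. Its levels were -0.19, -0.11, 0.34 and -0.50 in theca, -6.10, -3.77, -4.75 and -6.59 in granulosa, -6.82, -6.82, -5.55 and -6.57 in cumulus and -4.36, -4.11, -4.17 and -4.06 in the oocyte. Theca lay above every other array, cumulus was not above background on any, and theca was at least 39.3-fold above cumulus (adjusted p = 4.14e-08). ZNF536 (chr18:41116113-41214205), known as a repressor of neuronal differentiation, had the opposite pattern. It was at -5.61, -6.69, -6.36 and -6.70 in theca, -1.62, -1.08, -1.93 and -1.70 in granulosa and -0.70, -0.57, -0.47 and -0.91 in cumulus. Theca was above background on 1 array and lay -5.22 ± 0.32 (SE) from the mean of the other 2 types (adjusted p = 8.03e-09).

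Smaller differences were found in the other theca-high members named by the rule. ZNF391 was at least 1.75-fold above granulosa, where no array detected it. ZNF280B was called higher in theca, but its theca mean lay below the floor of the granulosa arrays and no fold is given. ZNF154 differed by 2.11 ± 0.32 (SE) and ZNF385A, a p53 and adipogenesis cofactor, by 0.96 ± 0.14. ZNF154 and ZNF280B were not called with normexp (0.28 and 0.11). Among the lower members, ZNF346, which binds double-stranded RNA, was at -0.44, -0.26, -0.11 and -0.75 in theca, 0.77, 0.54, 0.93 and 0.60 in granulosa and 1.26, 1.17, 1.31 and 1.32 in cumulus, with no overlap (difference -1.38 ± 0.13, SE; adjusted p = 8.89e-07). ZNF189 differed by -1.83 ± 0.18, ZNF215 by -1.69 ± 0.18 and ZNF76, a relative of ZNF143, by -1.17 ± 0.29. For ZNF76 the call was lost with normexp (-0.43).

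Between cumulus and granulosa the members differed least. Of the 265 genes, 9 (3.4%) were higher in cumulus, against 5.28% of all genes, and 11 (4.15%) were lower, against 4.61%. At an unadjusted p below 0.05 the counts were 21 and 37, and the share of all genes at that threshold was not counted. The balance turned with the scaling. After quantile normalization 16 members were higher and 10 lower (6.91% and 5.37% of all genes), with the deposited values 19 and 5 (7.61% and 2.79%), and with normexp 7 and 5 (4.04% and 3.52%). With the array median 10 were higher and 4 lower, and with the percentile over detected probes 7 and 14 (4.69% and 6.21% of all genes). Without granulosa replicate 4, 21 were lower, beside 5.33% of all genes. Leaving out granulosa replicate 1, 2 or 3 gave 5, 5 and 7, and cumulus replicate 1, 2, 3 or 4 gave 5, 4, 7 and 6. In these fits 2.75 to 4.05% of all genes were lower. Within either slide alone, 0 were called by limma in either direction, beside 0.377 to 1.19% of all genes. Oocyte markers were also higher in cumulus than in granulosa (5 of 6; summed level -0.83 to 1.59 against -2.49 to -1.32), and 1 of 4 granulosa and cumulus markers was (AMH). Of the theca markers 2 of 5 were lower in cumulus (COL1A2 by -5.72 and ACTA2 by -2.41; summed level 4.66 to 5.03 in cumulus and 4.90 to 6.84 in granulosa), and of the blood markers 1 of 2 (HBB, detected on 1 granulosa array and no cumulus array), with 0 of 3 endothelial markers called. The part of these cells and of oocyte RNA was not tested.

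ZNF791 (chr7:14012314-14014696) was at -2.51, -2.11, -2.44 and -2.01 in cumulus and -3.36, -4.19, -4.25 and -3.68 in granulosa. ZNF217 (chr13:81854047-81863004), a regulator that acts with CtBP and is amplified in breast cancer, was at -2.77, -3.00, -2.90 and -2.99 in cumulus and -1.82, -1.29, -1.25 and -2.04 in granulosa. As the choice required, the groups did not overlap in either gene. Cumulus was above by 1.60 ± 0.23 in ZNF791 and below in ZNF217 (-1.32 ± 0.19, SE, limma's adjusted p = 4.77e-04 and 4.21e-04). ZNF189 was higher in cumulus by 1.07 ± 0.21 (adjusted p = 0.00384). ZNF750, known in epidermal differentiation, was higher by 1.61 ± 0.47 (adjusted p = 0.0403); the call was lost without theca replicate 3, granulosa replicate 1, 2 or 3, cumulus replicate 1, 2 or 4, or oocyte replicate 3 or 4, with values of 1.19 to 1.75, and with normexp (0.51). ZNF703 was higher by 1.36 ± 0.24 near background, a value that was -0.14 with normexp. ZNF280D differed by -1.65 ± 0.38, ZNF345 by -1.03 ± 0.16 and ZNF711 by -1.21 ± 0.33, the last with an adjusted p of 0.0295 that was lost without granulosa replicate 1 or 2 or cumulus replicate 2 or 4 (-1.20 to -1.08).

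**Figure D4:**
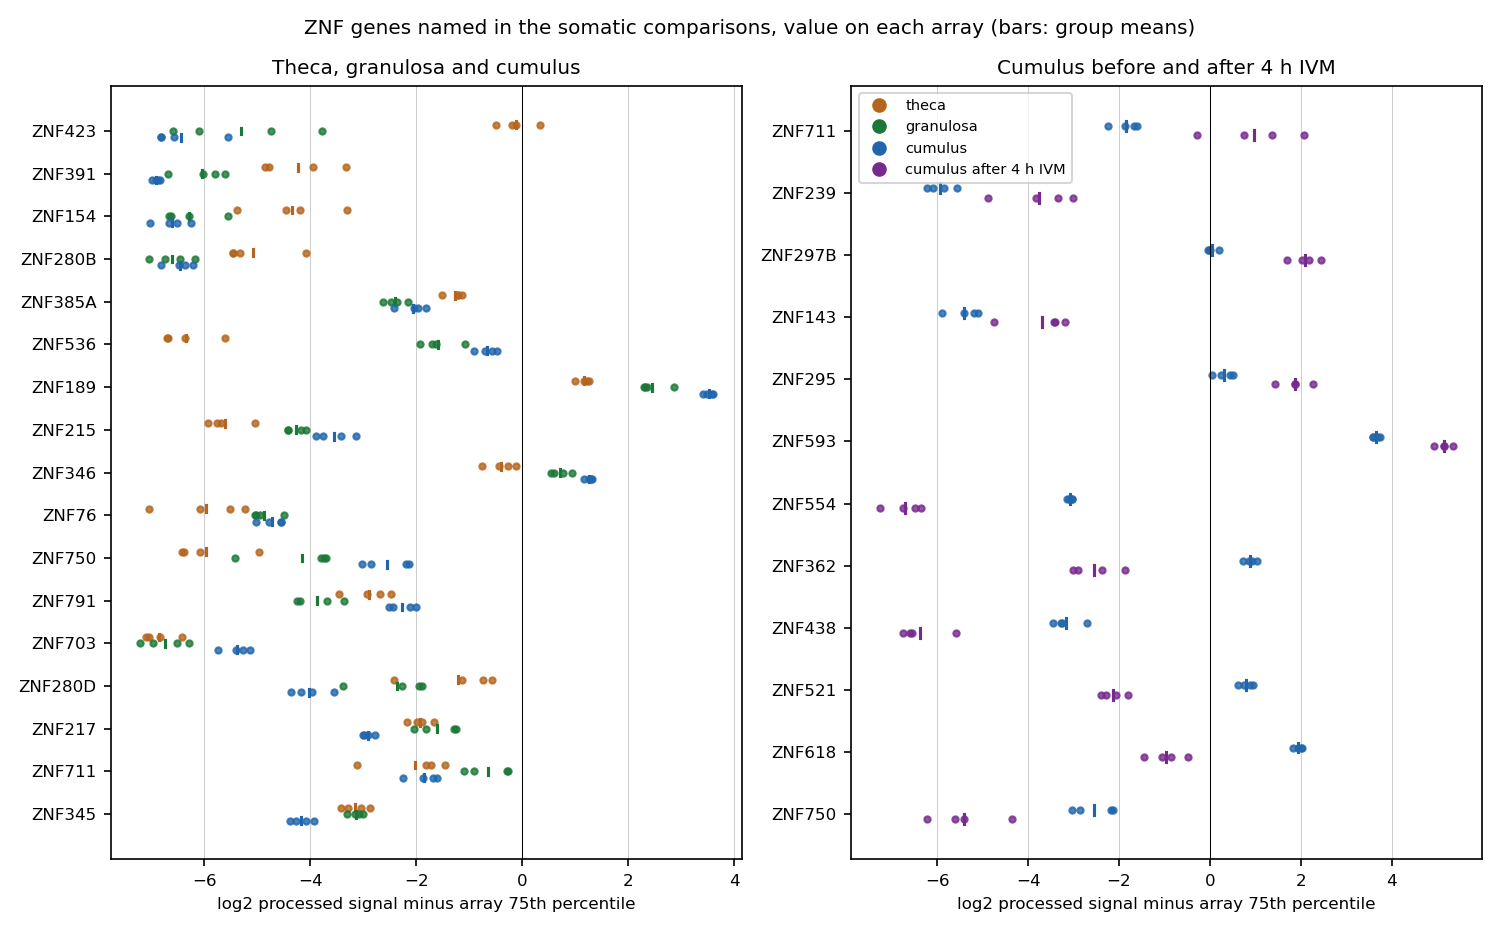
Level on each array (x axis, log2 signal minus the array's 75th percentile) of the ZNF genes named for theca, granulosa and cumulus (left) and for cumulus before and after 4 h IVM (right); points are the 4 arrays of a group and bars its mean. In ZNF423 the theca arrays (-0.50 to 0.34) lie above granulosa and cumulus (-6.82 to -3.77), and in ZNF362 the arrays after IVM (-3.01 to -1.88) lie below fresh cumulus (0.73 to 1.05).

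Cumulus after 4 h of IVM was set against fresh cumulus in a separate fit of these 8 arrays. Of the 265 ZNF genes, 38 (14.3%) were higher after IVM, against 30.3% of all genes, and 92 (34.7%) were lower, against 15.5%. The median difference was -0.27 in the members and 0.37 in all genes. Among genes above background on all 20 arrays, 12.7% of members were higher and 37.3% lower, against 21.4% and 24.0% of all such genes. Their medians were -0.32 in the members and -0.007 in all. The direction turned with the background correction: with normexp 133 members were higher and 43 lower, the members' median was 0.28 and that of all genes 0.55, and 65.2% of all genes were higher and 13.1% lower. After quantile normalization 19 were higher and 91 lower, beside 12.2% and 16.1% of all genes. Without cumulus replicate 1 or 3, 22 were higher in each case, beside 16.5% and 17.0% of all genes. The arrays after IVM were dimmer (75th percentile of the signal 284 to 396, against 536 to 657 in cumulus) and lay on a slide of their own, so that IVM and slide cannot be told apart.

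By brightness, the members were more often lower after IVM than all genes in quartiles 2 to 4 of mean level. The shares were 31.8% of members against 10.3% of all genes in quartile 2, 43.8% against 26.9% in quartile 3 and 34.8% against 24.5% in quartile 4. In quartile 1, the dimmest, 8 of 22 members were higher and 0 lower, against 53.7% and 0.461% of all genes. Oocyte markers were lower after IVM in 4 of 6 genes (summed level -2.64 to -0.84, against -0.83 to 1.59 in cumulus), while 2 of 2 blood markers (-5.56 to -4.41, against -6.30 to -6.13) and 2 of 3 endothelial markers (-4.34 to -3.11, against -5.63 to -4.86) were higher. Of the granulosa and cumulus markers 3 of 4 were lower (AMH, FSHR and CYP19A1) and INHBA was higher (summed level 9.29 to 9.59, against 8.57 to 8.62). PTPRC and CDH5 were above background on no array before or after IVM. The part of other cells in the members' result was not tested.

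Members were named as lower after IVM only if every array after IVM lay below all fresh cumulus arrays. ZNF362 (chr2:121242594-121268659) was at -3.01, -1.88, -2.37 and -2.91 after IVM and 0.85, 0.92, 0.73 and 1.05 before. ZNF521 (chr24:31675533-32049400), an antagonist of EBF factors known from stem cells, was at -2.07, -1.80, -2.39 and -2.28 after and 0.88, 0.61, 0.94 and 0.75 before. ZNF618 (chr8:104797238-104995986) was at -1.05, -1.44, -0.48 and -0.87 after and 2.02, 1.94, 1.84 and 2.00 before. The differences were -3.43 ± 0.27, -2.93 ± 0.20 and -2.91 ± 0.22 (SE, limma's adjusted p = 1.89e-05, 9.72e-06 and 1.89e-05). ZNF554 was above background on all cumulus arrays and on no array after IVM, at least 3.18-fold lower. ZNF438 was likewise at least 2.98-fold lower, and ZNF750 fell by 2.85 on the log2 scale. All 6 were lower with every alternative tried, normexp included.

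Higher after IVM were ZNF711 at 2.08, -0.28, 1.36 and 0.74 (before, -1.61, -1.87, -1.67 and -2.24) and ZNF297B, now called ZBTB43, at 2.03, 2.18, 1.70 and 2.45 (before, 0.21, -0.04, -0.01 and 0.00). Both lay above every cumulus array, which the choice required of all members named as higher. Their differences were 2.82 ± 0.44 and 2.05 ± 0.21 (SE, limma's adjusted p = 1.00e-03 and 8.00e-05). The 4 ZNF711 arrays after IVM spread over more than 2 on the log2 scale. ZNF593 (chr2:127523710-127524790), which acts in maturation of the large ribosomal subunit, was at 5.36, 5.15, 4.93 and 5.16 after and 3.60, 3.58, 3.75 and 3.70 before. ZNF295, now ZBTB21, rose by 1.55 ± 0.22, ZNF239 by 2.17 ± 0.38 and ZNF143, an activator of small nuclear RNA genes whose probe is printed above, by 1.71 ± 0.35. The difference of ZNF593 was 1.49 ± 0.18 (SE, limma's adjusted p = 2.00e-04).

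Members of known function were listed by role. Of 8 that act on RNA or translation, 4 were higher (50%) and 1 lower (12.5%) in the oocyte, beside 45.7% and 35.8% of all members and 32.9% and 38.3% of all genes. ZNF830, a spliceosome-associated protein, was higher by 3.03 ± 0.18, ZNF622 by 2.57 ± 0.49, ZNF346 by 1.68 ± 0.13 and ZNF593 by 0.81 ± 0.13 (SE). ZNF326, which links splicing and transcription, was lower (-1.79 ± 0.15). The ZNF622 groups overlapped: oocyte replicate 1 was at 1.48 and the other oocyte arrays at -0.80 to -0.44, and theca replicate 4 at -0.47 lay among these. For ZNF598, a ubiquitin ligase of stalled ribosomes, ZNF638 and ZNF207 the differences were 0.49, -0.14 and -0.32 and were not called. After IVM, ZNF593 and ZNF622 were higher (1.49 and 1.31) and ZNF346 lower (-1.82). The counts of this and the following lists were read with the main scaling alone. ZNF346 levels were -0.37, -0.71, -0.54 and -0.62 after IVM, below all cumulus arrays at 1.26, 1.17, 1.31 and 1.32.

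Of 12 developmental regulators, 4 were higher (33.3%) and 6 lower (50%) in the oocyte, beside 32.9% and 38.3% of all genes, with a median difference of -0.55 (all genes -0.52). ZNF462, a large chromatin-bound factor of the embryo, was higher (0.60 ± 0.15, SE) and ZNF217 too (1.12 ± 0.15), as were ZNF503, which no granulosa or cumulus array detected and for which no fold is given, and ZNF703 (0.76); they turned to -0.96 and -1.05 with normexp and to -0.15 and -0.20 in the deposited table. ZNF521, ZNF536, ZNF750 and ZNF219 were lower, from -4.43 to -0.88. ZNF704, which no oocyte array detected, was at least 4.06-fold lower than the somatic mean. ZNF516 was called lower but was not above background on any array of the 4 cell types, so no fold is given. The call was lost for ZNF516 without oocyte replicate 1 or 3 and for ZNF219 without oocyte replicate 3 or 4 (-0.66 and -0.82). In theca 7 of the 12 were lower (58.3%, against 18.5% of all genes and 23.8% of members) and 2 higher (16.7%, against 14.3%). After IVM 4 were higher and 4 lower (33.3% each, against 30.3% and 15.5% of all genes), with ZNF462 at 0.93, 1.37, 0.99 and 1.17 after and -0.31, -0.44, -0.40 and -0.18 before (1.45 ± 0.18, SE; adjusted p = 2.86e-04). ZNF652 was called in none of the comparisons.

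Of 20 general transcription and chromatin factors, 11 were higher (55.0%) and 6 lower (30.0%) in the oocyte, beside 45.7% and 35.8% of all members and 32.9% and 38.3% of all genes. ZNF263 was at 3.13, 3.65, 3.44 and 3.56 in the oocyte against 1.46 to 1.97 in somatic cells. ZNF143 was at -1.70, -1.58, -1.68 and -1.89 against -5.89 to -3.80. Neither overlapped (1.74 ± 0.12 and 3.39 ± 0.24, SE). Of the genes whose proteins associate with ZMYND8, all 3 listed were higher, ZNF532 by 1.97, ZNF687 by 0.90 and ZNF592 by 0.36; ZNF687 was -0.30 with normexp and ZNF592 -0.43 by its brightest probe. ZNF451, a SUMO ligase, was higher by 1.39, and ZNF410, which controls the nucleosome remodeller CHD4, by 0.55. ZNF335, ZNF384, ZNF318 and ZNF341 were higher by 0.31 to 0.95, of which ZNF318 and ZNF341 were -0.23 and -0.62 with normexp. Without oocyte replicate 3 the calls of ZNF384, ZNF592 and ZNF318 were lost (0.24, 0.36 and 0.60), and without replicate 4 those of ZNF384 and ZNF592 (0.26 and 0.33). Besides ZNF148, ZNF644 and ZNF711, lower values were found for ZNF281 (-2.92 ± 0.14), a relative of ZNF148, ZNF292 (-0.97 ± 0.17) and ZNF827, which was above background on 1 of the 20 arrays, so that no fold is given, and whose call was lost in 9 of the 16 fits that left out 1 array. Not called were ZNF24, ZNF76 and ZNF131 (0.04, 0.30 and -0.06). After IVM 3 of the 20 were higher (ZNF711, ZNF143 and ZNF131; 15.0%, against 30.3% of all genes) and 5 lower (25.0%, against 15.5%).

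ZNF445 and ZNF274, known for guarding imprints and heterochromatin, were both higher in the oocyte. ZNF274 was at -0.83, -0.74, -2.00 and -1.58 in the oocyte and -4.22 to -3.72 in somatic cells. ZNF445 was at -4.48, -4.13, -4.45 and -4.27 in the oocyte and -7.28 to -4.82 in somatic cells, where 4 of 12 arrays were above background. Every oocyte array lay above the somatic ones in both genes (2.60 ± 0.19 and 1.41 ± 0.34, SE; adjusted p = 4.27e-09 and 0.00167), but ZNF445 was -0.48 with normexp. After IVM ZNF274 was higher by 0.84 ± 0.24 (adjusted p = 0.0202). ZFP57, a zinc finger gene outside the members, went the other way in the oocyte and was called lower (-3.01 ± 0.40, SE). It was above background on 1 of the 4 oocyte arrays and on all theca, granulosa and cumulus arrays.

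The proteins with which KRAB zinc fingers work are no members, and a list of 20 genes was read for them. The list also holds ZFP57, itself a zinc finger gene, which is among the lower ones in the oocyte and is counted again with the ZFP genes below. In the oocyte 10 were higher and 10 lower (50% each, against 32.9% and 38.3% of all genes). TRIM28, the main KRAB cofactor, was lower (-0.99 ± 0.17, SE), and the H3K9 methyltransferase SETDB1 was higher (1.27 ± 0.22), as was UHRF1 (4.83 ± 0.32). After IVM 6 of the 20 were lower (30.0%, against 15.5% of all genes) and 1 higher (5.0%, against 30.3%), with TRIM28 at -1.93 ± 0.21, SETDB1 at -1.84 ± 0.28 and UHRF1 at -3.44 ± 0.26 (SE; adjusted p = 1.20e-04, 9.11e-04 and 1.80e-05). In theca 8 were lower (40.0%, against 18.5% of all genes) and 0 higher (14.3% of all genes) than in granulosa and cumulus. Of other zinc finger symbols, 5 of 13 ZFP genes (38.5%) were higher in the oocyte and 4 (30.8%) lower. The counts were 15 and 12 of 37 ZBTB genes (40.5% and 32.4%) and 5 and 3 of 13 ZSCAN genes (38.5% and 23.1%). Of 4 ZKSCAN genes, 0 were higher and 3 lower (75%), beside 32.9% and 38.3% of all genes. After IVM the lower counts were 5 of 13 (38.5%), 6 of 37 (16.2%), 5 of 13 (38.5%) and 3 of 4 (75%). Of all members 34.7% were lower and of all genes 15.5%, so a raised share was found in the ZFP, ZSCAN and ZKSCAN genes too. The higher counts were 1, 7, 3 and 0 (7.69%, 18.9%, 23.1% and 0%, against 30.3% of all genes).

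By position, 75 of the members lay on chromosome 18. Of these, 32 were higher and 27 lower in the oocyte (42.7% and 36.0%), near the 46.8% and 35.8% of the 190 members elsewhere. After IVM, 18 of the 75 (24.0%) were lower, against 74 of the 190 elsewhere (38.9%) and 15.5% of all genes; the difference was not tested. Runs of at least 6 members with gaps of at most 500000 bases numbered 6. The longest, 17 genes at chr18:47018467-47883111 from ZNF565 to ZNF573, held 8 higher and 7 lower in the oocyte, from -5.50 (ZNF146) to 2.13 (ZNF345), so that neighbours differed widely. After IVM 9 of these 17 were lower and 0 higher, with a median of -0.83. A run of 8 on chr25:26831623-27895361 had 5 lower and 0 higher (median -1.05). The run of 16 genes at chr18:64691262-65910529, which includes ZNF304 and ZNF274, had 4 higher and 2 lower (median 0.12). The other runs after IVM were 10 genes at chr18:52064957-53158137 with 0 higher and 1 lower, 7 at chr25:2556670-2855519 with 1 and 2, and 10 at chr4:113021969-113630153 with 2 and 4. Of all members 14.3% were higher and 34.7% lower after IVM. Neighbouring members can share probe sequence, and the runs were not tested as groups.

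Probes of 1 gene did not always move together. Of 261 members with at least 2 probe sequences, 15 (5.75%) had probes called in opposite directions in the oocyte, against 2.80% of all genes, and 4 (1.53%, against 1.04%) after IVM. In ZNF10, the linker probe printed above was higher in the oocyte by 1.65 and was above background on 17 of the 20 arrays, while the gene's other probe differed by -2.00 and was above background on 5. In ZNF132 the linker probe differed by 0.75 and the other by -1.86, on 20 and 1 arrays above background. The dimmer probe thus gave the opposite sign in both genes. In ZNF513 both sequences were bright in somatic cells: 1 of them, spotted under 2 names, differed by 0.85 and 0.80 and the other by -5.44 and -6.35, with the latter above background on 16 arrays and on none of the oocyte's. In ZNF483, probes of 1 transcript were higher by 3.45 and 4.07 and those of another lower (-2.49 and -2.06), the latter pair above background on 3 and 2 arrays. ZNF24, ZNF345 and ZNF598 are among the 15 as well. For these genes the median over probes does not describe 1 transcript.

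Some ZNF genes varied little between the groups. Those with the smallest range of group means among members above background on all 20 arrays were ZNF79, ZNF394, ZNF133, ZNF77 and ZNF638. ZNF79, whose linker probe is printed above, lay from -1.01 to -0.13, and ZNF638, an RNA-binding protein, from 2.50 to 3.65. Of the 5, ZNF77 and ZNF394 were called higher in the oocyte (0.44 ± 0.15 and 0.37 ± 0.13, SE; adjusted p = 0.0169 and 0.0227). In all 5, the difference after IVM was between -0.56 and 0.31 and was not called. ZNF77 has probes called in opposite directions after IVM.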

How the data were processed

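Total RNA was labelled with Cy3 and hybridised to 20 one-colour Agilent arrays of a custom bovine design, 4 per group. Per the file headers, the authors scanned them with Feature Extraction 10.7.3.1, whose processed signal is a background-subtracted intensity. The deposited log2 table differs by at most 5.0e-09 from log2 of the median pixel signal minus a constant per array, each array having a median of 0; it served as an alternative. The direction of all values is set by the single colour.

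Control spots and outlier spots (at most 23 on an array) were left out, no spot was saturated, log2 of the processed signal minus the array's 75th percentile was taken, and the median over the spots of a gene was used. Of 61325 probes, 9779 had no gene name, and 728 of those were named by accession. Symbols are those of the array design; 258 of 265 had a current symbol in RefSeq, and 11 of these differ. Coordinates are those of the array files (UMD 3.1).

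Linear models (limma 3.58.1 in R 4.3.3; the data.table package, version 1.17.8) were fitted over 22550 genes or transcripts, for the 16 arrays of the 4 cell types and for the 8 cumulus arrays, p-values being adjusted after Benjamini-Hochberg and called below 0.05. A probe counted as above background by the scanner's own mark. "At least" folds were computed for 1 dim group at a time with no array above background, setting the brighter side's mean against the mean over its arrays of the higher of the probe signal and the lowest signal marked above background; none is given where this was under 1. Limma's tests set each difference between groups against the spread between arrays within groups, and 4 arrays a group limit the precision. For IVM the difference between groups is also one between slides. Simulated data had 200 of 22550 genes changed by 2 on the log2 scale. Of these, 91% were recovered for the oocyte comparison, 78% for theca, 74% for cumulus against granulosa and 79% for IVM. With a change of 1 the shares were 35.5, 36.5, 33.5 and 0%. Far more genes were called in the data (after IVM 30.3% higher and 15.5% lower), so the adjusted threshold was less strict there. The simulated shares are thus not the recovery in these data, where ZNF274 was called after IVM at 0.84.

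Named genes were the 10 highest and 10 lowest called differences for the oocyte, 5 and 5 for theca, 4 and 4 for cumulus against granulosa and 6 and 6 for IVM, among genes whose groups do not overlap and whose brighter side was above background on at least 3 arrays, with the 5 steadiest genes and the members of the function lists. The rule for members reads symbols only, but the family, its lists and the tests were chosen with earlier results of these data known. The labels do not say that a replicate number marks a shared animal, litter or day. Among the cell types, the deviations of same-numbered arrays correlated at -0.13 to 0.34 and those of differently numbered arrays at -0.34 to 0.24. Alternatives were quantile, array median and normexp normalization (offset 50), the deposited log2 table, other rules for spots and dim genes, all arrays in 1 fit, slide and replicate as blocks, each slide alone, array weights, analysis of variance, and each array left out; slide as a random block and leaving out linker probes were added after seeing the data. A split by KRAB or SCAN domain was not made, since protein sequences were not used here.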

Additional observations from a re-analysis of the deposited data

Results flagged for a closer look

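Of 375 sets of 4 arrays (a named or listed ZNF gene in a group), 32 had 1 array far from the other 3 by Dixon's criterion for 4 values, the gap to the nearest array set against the whole range. Chance alone gives about 1 in 20. All values are levels on the log2 scale.

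In theca these were ZNF280B at -4.08 on replicate 4 (others -5.46 to -5.32), ZNF146 at -1.98 on replicate 4 (others -0.97 to -0.78) and ZNF598 at -0.99 on replicate 4 (others -1.94 to -1.81). Further, there was ZNF622 at -0.47 on replicate 4 (others -3.28 to -3.00) and ZNF274 at -3.74 on replicate 3 (others -3.84 to -3.82). Replicate 4 was the one apart in ZNF280B, ZNF146, ZNF598 and ZNF622.

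The granulosa arrays that stood apart were ZNF541 at -7.18 on replicate 2 (others -7.03 to -7.01), ZNF189 at 2.87 on replicate 1 (others 2.30 to 2.35) and ZNF76 at -4.50 on replicate 1 (others -5.03 to -4.96). Further, there was ZNF750 at -5.41 on replicate 3 (others -3.79 to -3.70), ZNF297B at -0.019 on replicate 1 (others 0.12 to 0.15) and ZNF326 at 0.34 on replicate 4 (others 0.89 to 0.96). Another set was ZNF281 at 1.30 on replicate 3 (others 1.04 to 1.09), ZNF410 at -0.61 on replicate 1 (others -0.87 to -0.83) and ZNF451 at -1.96 on replicate 4 (others -1.61 to -1.55). Another set was ZNF292 at -1.46 on replicate 4 (others -0.73 to -0.65) and ZNF318 at -4.99 on replicate 4 (others -3.84 to -3.70).

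Among fresh cumulus arrays they were ZNF148 at 0.44 on replicate 1 (others 0.34 to 0.36), ZNF297B at 0.21 on replicate 1 (others -0.04 to 0.00) and ZNF207 at -2.01 on replicate 2 (others -2.35 to -2.30). Further, there was ZNF827 at -5.59 on replicate 4 (others -6.98 to -6.77) and ZNF341 at -3.95 on replicate 1 (others -4.79 to -4.72).

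After IVM they were ZNF621 at -5.41 on replicate 2 (others -4.84 to -4.76), ZNF146 at -1.45 on replicate 2 (others -0.40 to -0.21) and ZNF345 at -4.51 on replicate 2 (others -5.86 to -5.76). Further, there was ZNF143 at -4.76 on replicate 2 (others -3.44 to -3.19), ZNF438 at -5.58 on replicate 3 (others -6.75 to -6.55) and ZNF207 at -3.40 on replicate 2 (others -1.23 to -1.06).

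For the oocyte they were ZNF541 at 1.02 on replicate 1 (others 1.26 to 1.29), ZNF474 at -0.92 on replicate 3 (others -1.95 to -1.90) and ZNF502 at -6.32 on replicate 2 (others -7.64 to -7.51). Further, there was ZNF484 at -6.33 on replicate 2 (others -8.11 to -8.04) and ZNF622 at 1.48 on replicate 1 (others -0.80 to -0.44). ZNF502 and ZNF484 were apart on replicate 2, the array with the fewest ZNF probes above background (53.5%).

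No cause was tested.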

How the results depend on the processing

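Limits: 4 arrays a group, dim probes near background whose level follows the background correction, arrays after IVM on a slide of their own, and probes shared with relatives. The cause of each change below was not tested.

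Percentages in brackets are those of all genes under the same alternative. None is given for the genes differing among somatic types. With normexp, 150 ZNF genes were lower in the oocyte (67.1%), 7 higher in theca (10.3%) and 5 lower in cumulus than granulosa (3.52%). After IVM 133 were higher (65.2%) and 43 lower (13.1%), and the members' median turned to -0.61 for the oocyte and 0.28 for IVM. Signs turned with normexp in ZNF703 (cumulus minus granulosa -0.14, oocyte -1.05), ZNF503 (-0.96), ZNF687 (-0.30), ZNF318 (-0.23), ZNF341 (-0.62) and ZNF445 (-0.48), in the deposited table in ZNF503 (-0.15) and ZNF703 (-0.20), and by the brightest probe in ZNF592 (-0.43). Quantile normalization gave 16 higher in cumulus than granulosa and 19 higher after IVM, and the array median 10 higher in theca and 4 lower in cumulus than granulosa. The deposited table gave 11 higher in theca (12.6%), and 19 higher (7.61%) and 5 lower (2.79%) in cumulus than granulosa. With the percentile over detected probes, 27 were higher (17.9%) and 33 lower (13.6%) in theca, and the members' oocyte median was 0.050 (-0.73 in all genes). The brightest probe gave 7 lower in cumulus than granulosa (4.79%), and 1 fit of all 20 arrays gave 5 (3.62%). A filter on dim genes left 220 members for IVM, of which 25 were higher (22.1% of all genes that passed it). Within slide 1, 15 differed among somatic types, 6 were higher (8.42%) and 17 lower (6.96%) in theca, and 0 higher (0.377%) and 0 lower (0.443%) in cumulus than granulosa. Within slide 2 these were 23, 10 (9.91%), 15 (9.58%), 0 (1.19%) and 0 (0.803%), by limma with fewer arrays. Array weights gave 126 differing among somatic types, 27 higher in theca (17.1%), and 18 higher (8.39%) and 24 lower (8.97%) in cumulus than granulosa. Slide as a random block, added after seeing the data, gave 63 higher after IVM (45.8%). Slide as a fixed block and fits within a slide could not be fitted for IVM.

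With the replicate number as a block, 123 were higher (33.1% of all genes) and 94 lower (38.8%) in the oocyte, and 16 (14.4%) and 66 (18.9%) in theca. The counts were 9 (5.37%) and 12 (4.92%) in cumulus against granulosa, and 27 (18.4%) and 83 (12.9%) after IVM. The numbers were not taken as pairing, since the labels do not say what they mark. Among the cell types, same-numbered arrays correlated from -0.13 to 0.34 (median 0.069) and differently numbered ones from -0.34 to 0.24 (median -0.023). Of 16 arrays, 12 correlated best with their own number. A shared origin of same-numbered arrays was not tested. With each array left out in turn, the counts ranged from 206 to 222 differing among the 4 cell types, 66 to 95 among somatic types, 116 to 123 higher and 84 to 98 lower in the oocyte, 12 to 19 and 51 to 71 in theca, 6 to 11 and 4 to 21 in cumulus against granulosa, and 22 to 40 and 75 to 89 after IVM. Of all genes, 31.9 to 33.3% were higher and 32.5 to 52.3% lower in the oocyte, and 12.8 to 15.0% and 15.7 to 19.9% in theca. These shares were 3.84 to 6.14% and 2.75 to 5.49% in cumulus against granulosa, and 16.5 to 33.7% and 12.3 to 15.8% after IVM. For genes differing among the 4 cell types or among somatic types, the share of all genes in these fits is not given. Calls of named genes that were lost with the sign kept were those of ZNF711 (cumulus against granulosa), ZNF219, ZNF384 and ZNF827 after quantile normalization, the same without ZNF384 with the array median, ZNF154, ZNF280B and ZNF76 (theca) and ZNF750 (cumulus against granulosa) with normexp, and ZNF280B (theca) and ZNF703 (cumulus against granulosa) in the deposited table. They were ZNF384, ZNF592 and ZNF318 with the percentile over detected probes, ZNF703 (oocyte and cumulus), ZNF503, ZNF687 and ZNF827 by the brightest probe, ZNF711 (cumulus against granulosa) and ZNF384 in 1 fit of 20 arrays, ZNF827 with the replicate block, and ZNF76 (theca) without linker probes. Within slide 1, 20 were lost and within slide 2, 12, with fewer arrays. The 12 genes named for IVM kept their direction and call under all alternatives run.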
